A study of Mus musculus with 2 samples.

Results

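The habenula is a small paired nucleus of the dorsal diencephalon that lies beside the midline, with the hippocampus and the choroid plexus of the third ventricle above it and the thalamus below. Its medial division holds glutamatergic neurons, most of which also make either acetylcholine or the tachykinin substance P and project through the fasciculus retroflexus to the interpeduncular nucleus. Its lateral division signals disappointing or aversive outcomes to the midbrain dopamine and serotonin systems. The medial division is known for the densest nicotinic receptor expression of the brain, built around the alpha 3, beta 4 and alpha 5 subunit gene cluster, and for roles in nicotine withdrawal and aversion.

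Habenula spots were chosen by a marker score on the array itself. In each of 2 coronal mouse brain sections the score of a spot was the mean over Tac2 (the neurokinin B precursor), Nwd2 (a gene of the NACHT and WD repeat family) and Pou4f1 (the homeodomain factor Brn3a) of ln(1 + UMIs of the gene per 10000 UMIs of the spot), and the 30 highest spots with at least 2000 UMIs were taken. This gave 60 habenula spots of 7890 spots under tissue, 30 of 4152 in the section labelled Trained and 30 of 3738 in the section labelled Untrained. A UMI is a molecular tag that marks 1 captured RNA molecule, and a Visium spot is a patch of tissue that can hold several cells of different types. The levels of Tac2, Nwd2 and Pou4f1 are therefore a description of how the spots were found and not a result.

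The Trained section came from 1 adult male mouse trained in active place avoidance, where a mild shock marks a zone of a rotating arena. The Untrained section came from 1 adult male that explored the same arena with the shock off. Both mice carried ArcCreERT2::eYFPflx, a tamoxifen-inducible Cre driven by Arc regulatory sequence with a floxed eYFP reporter, on a C57BL/6 background, and both brains were taken an hour after a retention test. With 1 section of 1 mouse in each group, training cannot be told apart from the animal, the plane of section or the library, so no p-value is given. Every interval printed is a 95% interval that covers counting error only. Directions follow the labels as deposited. Whether the deposited labels match the groups in the study's account was not settled from these files, and an exchange of the sections would turn the sign of every ratio of Trained over Untrained. Among the other spots with at least 2000 UMIs, at least 1 UMI of the activity genes Egr1, Jun and Arc was found in 39.0%, 31.5% and 27.5% of Trained spots and in 57.2%, 46.6% and 40.7% of the more deeply sequenced Untrained spots, and no order of the groups was read from these shares.

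The score picked out 1 compact patch in each section. In Trained, 28 of 30 habenula spots adjoined one another between array rows 29 and 35 and columns 61 and 71, and in Untrained all 30 lay in 1 patch between rows 32 and 39 and columns 57 and 69. The arrays were covered by tissue from column 4 to 127 in Trained and from column 0 to 127 in Untrained, so the patches sat near the middle of the section. Array rows ran from dorsal to ventral, since the 100 spots highest in Oxt, the hypothalamic hormone oxytocin, had a median row of 67 in both sections. Within the columns of the patch, all 20 spots highest in a relay thalamus gene list lay below the patch in both sections, while of the 20 spots highest in choroid plexus genes 9 lay above it in each section and none below it. The 100 spots highest in Prox1, the dentate granule cell factor, had a median row of 31 in Trained and 34 in Untrained, close to the median habenula row of 32 and 36, with median columns of 54.5 and 44. Within the columns of the patch, the 20 spots highest in a dentate granule cell list lay on both sides of it, 9 above and 10 below in Trained and 8 above and 11 below in Untrained, so these genes did not place the patch below the hippocampus. The lowest accepted scores were 1.423 in Trained and 1.413 in Untrained, and the highest rejected scores were 1.421 and 1.391. The highest rejected Trained spot lay far away at row 58 and column 92, with 24 Tac2 UMIs and 1 Nwd2 UMI. The 2 Trained habenula spots outside the patch lay at row 35, column 57 and at row 38, column 60, and the latter held 8 UMIs of the thalamic kinase gene Prkcd.

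**Figure D1:**
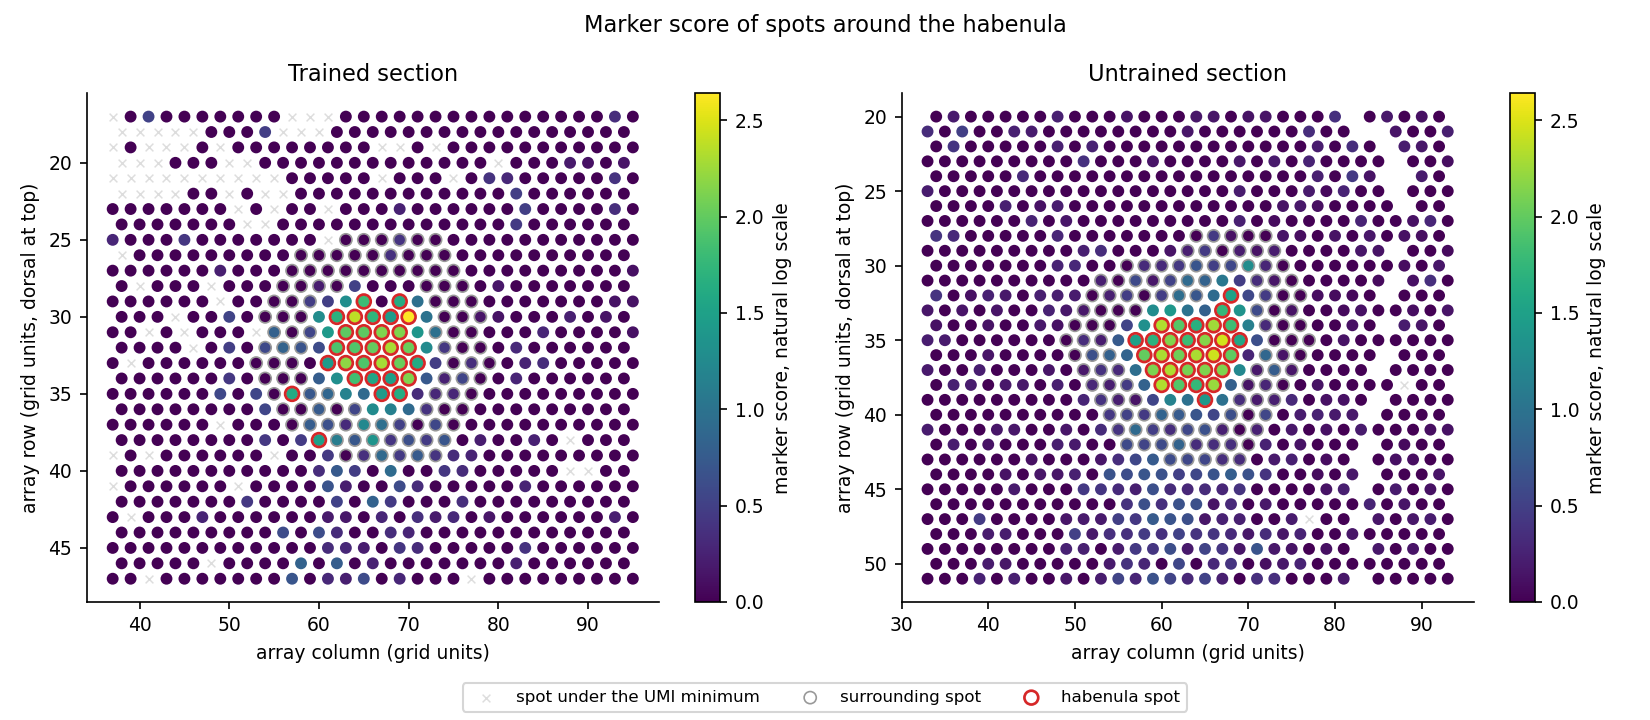
Marker score of single spots around the habenula in the Trained and Untrained sections, plotted by array column and array row in grid units with dorsal at the top. Red rings mark the 30 habenula spots of each section and grey rings the surrounding spots 2 to 4 grid steps from the patch. High scores form 1 patch per section, and 2 Trained habenula spots lie apart from it.

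The sections differed in depth, and the habenula spots followed them. Habenula spots held a median of 7985.5 UMIs in Trained, with a range from 3208 to 13607, and 23289 in Untrained, with a range from 11658 to 37113. The remaining spots above the minimum held medians of 6612 and 14305.5 UMIs. Pooled, the habenula spots gave 238899 UMIs in Trained and 720883 in Untrained. The sections shared 3448 of their spot barcodes, and 9 barcodes were habenula spots in both, because every slide of this kind prints one common barcode set. Below, levels are UMIs pooled over spots and scaled to counts per 1e+06 UMIs (CPM), ratios are log2 ratios of those levels with 0.5 UMI added to each count, and a gene is called when the ratio is at least 2-fold. Levels are not set against each other between genes.

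Against all other spots, the genes furthest above in habenula spots included the predicted gene Gm5741, the nicotinic subunit gene Chrna3 and the G protein subunit gene Gng8. Of 11970 genes with at least 100 UMIs in each section, 666 were at least 2-fold higher in habenula spots in both sections (5.56%), and 620 were at least 2-fold lower in both (5.18%). Of the 666 genes, 155 were at least 4-fold and 57 at least 8-fold higher in both sections. Only 202 of the 666 had 20 or more UMIs in the habenula spots of each section, so many of the other calls rest on few molecules. Counted in single sections, 1778 genes passed in Trained and 1056 in Untrained, and the shared 666 were 37.5% of the first list and 63.1% of the second. In spots of mixed tissue, more cells of a type and more RNA per cell cannot be told apart.

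The 25 leading genes, ranked by the lower interval bound of the weaker section, included all 3 genes of the score. Near 9 of the 21 leading genes with a RefSeq promoter entry, the 300 bases from 250 before to 50 after the start held the letters CAGCTG (42.9%), against 18.3% of all 27025 genes with an entry. These letters read the same on both strands and are known to be bound by basic helix-loop-helix factors such as NHLH2. The 9 genes include Tac2 and Pou4f1, which chose the spots, and without the score genes the letters were present for 7 of 18 genes (38.9%). All leading genes were ranked on the contrast that the score used, so the share is a description. The letters TAATTA, a homeodomain core that also reads the same on both strands, were present for 2 of the 21 genes (9.52%), against 6.12% of all genes. Of these promoters 3 are shown because their genes carry the habenula signature, namely the tachykinin gene of the score and a pair of transcription factor genes. They are given 5′ to 3′ on the strand of the gene, from RefSeq on GRCm38.p6, with the match in capitals. A match is a description of the letters and does not show binding.
Tac2, chr10:127724228-127724527, plus strand: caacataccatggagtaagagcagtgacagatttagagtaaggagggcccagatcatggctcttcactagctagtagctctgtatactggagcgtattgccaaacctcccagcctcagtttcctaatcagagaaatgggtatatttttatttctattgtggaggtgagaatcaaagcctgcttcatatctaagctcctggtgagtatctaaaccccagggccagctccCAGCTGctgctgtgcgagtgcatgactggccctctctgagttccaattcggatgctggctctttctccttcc
Pou4f1, chr14:104467950-104468249, minus strand: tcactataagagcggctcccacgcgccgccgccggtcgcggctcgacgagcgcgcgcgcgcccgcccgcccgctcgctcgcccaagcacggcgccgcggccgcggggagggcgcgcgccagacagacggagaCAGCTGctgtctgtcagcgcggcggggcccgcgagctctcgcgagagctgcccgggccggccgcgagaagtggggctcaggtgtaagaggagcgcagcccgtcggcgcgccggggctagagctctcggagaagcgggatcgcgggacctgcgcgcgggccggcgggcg
Nhlh2, chr3:102009895-102010194, plus strand: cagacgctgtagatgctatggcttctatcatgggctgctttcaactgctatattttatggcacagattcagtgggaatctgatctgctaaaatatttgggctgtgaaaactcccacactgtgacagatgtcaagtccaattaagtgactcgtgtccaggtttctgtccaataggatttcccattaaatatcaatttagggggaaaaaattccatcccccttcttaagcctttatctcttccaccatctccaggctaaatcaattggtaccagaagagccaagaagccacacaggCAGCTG
The first letter of the match lay 22 bases before the start of Tac2, 118 bases before that of Pou4f1 and 44 bases after that of Nhlh2.

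The genes of the score described the patch as follows. Tac2 was at 1360 CPM in Trained and 2645 CPM in Untrained, against 49.1 and 32.6 CPM in all other spots. Nwd2 was at 804 and 628 CPM against 16.2 and 18.3 CPM, and Pou4f1 was at 255 and 180 CPM against 1.91 and 2.32 CPM. Single Trained habenula spots ranged from 3.01 to 29.9 Tac2 UMIs per 10000 with a median of 11.8, and single Untrained spots from 7.02 to 68.7 with a median of 23.0. An antisense gene, Gm9954, overlaps Nwd2, and an antisense overlap matters only if strand was not used in counting.

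Outside the score, the predicted gene Gm5741 led the list. It was at 3144 CPM (95% interval 2923 to 3377) in Trained and at 1703 CPM (1610 to 1801) in Untrained, against 30.4 and 18.3 CPM in all other spots. Its log2 ratio over the other spots was 6.69 in Trained and 6.54 in Untrained, and every habenula spot held at least 1 of its UMIs. The annotation places it at chr8:85067568-85067982 on the minus strand of mm10 as a protein-coding gene, and no function is given for it here.

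Chrna3, the alpha 3 subunit of nicotinic acetylcholine receptors, was at 364 CPM in Trained and 290 CPM in Untrained against 3.96 and 3.95 CPM elsewhere, a log2 ratio of 6.53 (6.10 to 6.94) and 6.20 (5.92 to 6.47). Gng8, a G protein gamma subunit, was at 900 and 1004 CPM against 14.3 and 15.8 CPM, a log2 ratio of 5.98 and 5.99. Gpr151, an orphan receptor found on habenular axon terminals, was at 393 and 269 CPM against 6.80 and 6.88 CPM. The habenula value exceeded the level elsewhere by a wide margin for all 3 genes in both sections.

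Lrrc55, an auxiliary subunit of BK potassium channels, was at 423 and 530 CPM against 10.4 and 12.8 CPM. Kcnma1, the pore subunit of BK channels and itself not among the 25, was at 393 and 411 CPM against 36.6 and 46.5 CPM. Ano1, a calcium-activated chloride channel, was at 109 and 114 CPM against 3.30 and 3.16 CPM. Further leading genes bind calcium or serve vesicle release: Necab2, an EF-hand protein, had log2 ratios of 4.14 and 4.25, Necab3 of 3.77 and 3.85, and the synaptotagmins Syt6 and Syt9 of 4.57 and 5.31 and of 4.37 and 4.19. Gfra1, a receptor of the GDNF family, had ratios of 3.89 and 3.98, and Robo3, an axon guidance receptor of commissural neurons, of 4.23 and 3.79. Vav2, a guanine nucleotide exchange factor, had ratios of 4.57 and 4.15. Nfam1, an immunoreceptor-type signalling protein better known from lymphocytes, had ratios of 6.09 and 4.48 from 41 and 47 UMIs. The other leading genes, Ccdc155, Tspan18, Lsp1 and Minar1, had log2 ratios from 4.13 to 5.38. Lsp1 overlaps an antisense gene, Prr33, and the leading genes Ano1, Gfra1, Vav2, Kctd8, Syt6 and Necab3 also overlap genes on the opposite strand.

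**Figure D2:**
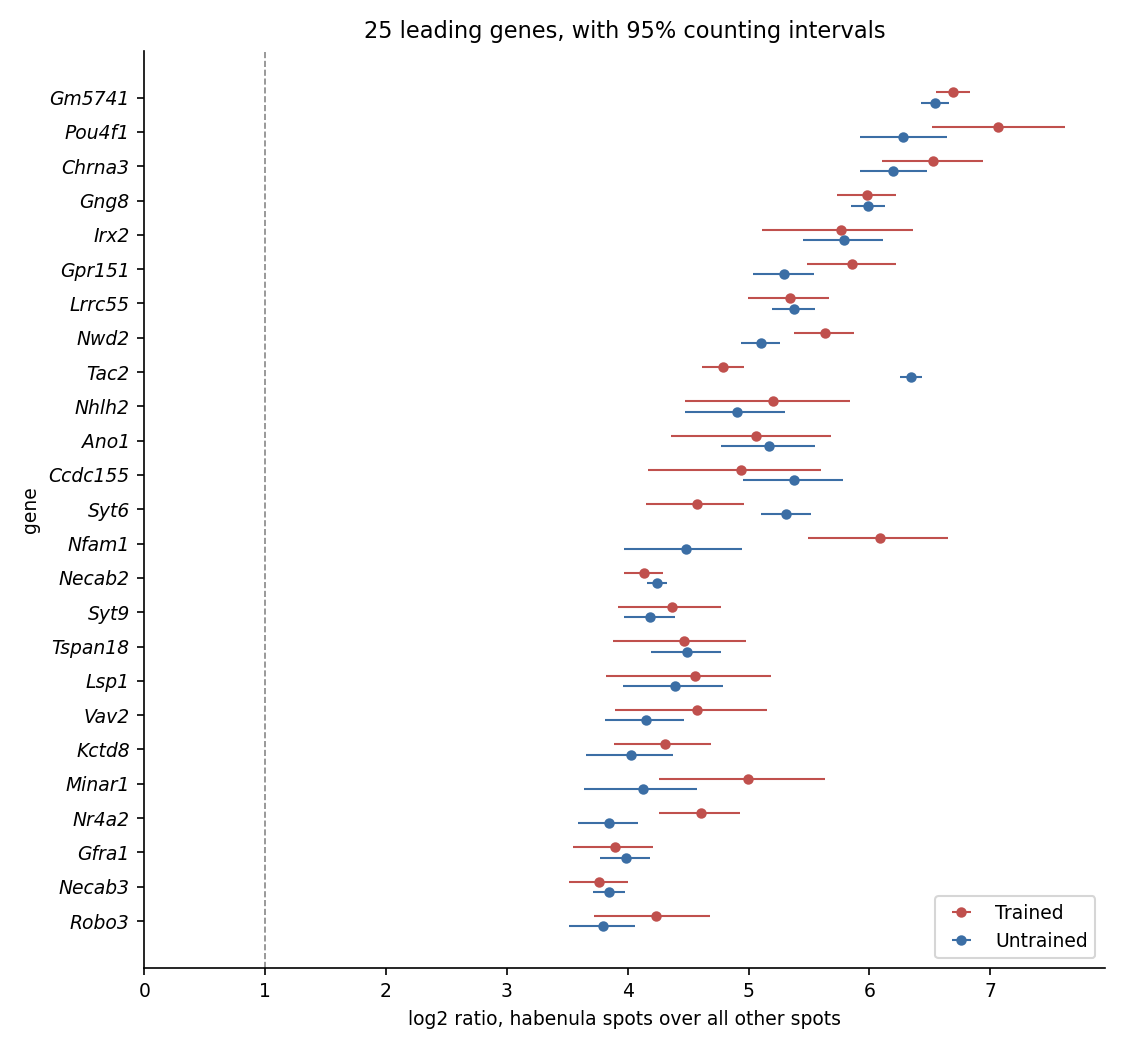
Log2 ratio of habenula spots over all other spots for the 25 leading genes, for Trained (red) and Untrained (blue), with bars for 95% counting intervals and a dashed line at 2-fold. All points lie above 3.5, and the sections lie furthest apart for Nfam1, at 6.09 and 4.48, and Tac2, at 4.79 and 6.34.

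A list of 20 medial habenula genes was read as a whole. Of its 15 members that reached the gene minimum, 13 were called higher than in all other spots in both sections, beside 5.56% of all genes. Their median log2 ratio, taken over the 15, was 3.68 in Trained and 4.29 in Untrained, beside 0.17 and 0.15 over all genes compared. The exceptions were Asic4, an acid-sensing channel, at 0.75 and 2.10, and Lmo3 at 0.87 and 0.86. The other 5 members were under the gene minimum: Chat, Chrnb3, Chrnb4, Wif1 and Syt15. Summed over the list, single habenula spots ranged from 1466 to 7915 CPM in Trained and from 1426 to 8902 CPM in Untrained, against pooled sums of 413 and 404 CPM in all other spots.

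A list of lateral habenula genes did not follow. Of 8 members compared, 1 was higher and 5 were lower in habenula spots in both sections, beside 5.56% and 5.18% of all genes, with median log2 ratios of -2.16 and -1.35. Cartpt, the CART peptide precursor, was the one that was higher, at 1.84 and 1.02. Gap43, a growth cone protein, was at -2.31 and -1.74, Pcdh10 at -2.02 and -1.28, and Sst at -2.82 and -1.42. Htr5b, a serotonin receptor of the list that fell under the minimum, was concentrated in the patch with 24 and 44 UMIs, or 100.5 and 61.0 CPM against 0.972 and 1.03 CPM elsewhere. By these counts, 13 of 15 medial and 1 of 8 lateral genes were higher in the spots chosen by the score. The score used no gene of the lateral list, so spots of the lateral division were not sought. The counts describe the chosen spots and do not compare the divisions of the nucleus.

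The acetylcholine genes were uneven. Slc5a7, the choline transporter, was at 205 CPM in Trained and 79.1 CPM in Untrained against 13.6 and 2.29 CPM, and Slc18a3, the vesicular acetylcholine transporter, was at 29.3 and 76.3 CPM against 4.20 and 1.31 CPM, from 7 and 55 UMIs. Slc18a3 lies inside the Chat locus on the same strand. Chat, which makes acetylcholine, gave 0 UMIs in Trained, which allows up to 12.6 CPM at 3 UMIs, and 5 UMIs in Untrained. Ache, the degrading enzyme, was close to the other spots at log2 ratios of 0.51 and 0.62. Of the 4 members of the list that were compared, 2 were called higher in both sections, beside 5.56% of all genes.

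Among 11 neuronal nicotinic subunits, the alpha 3, beta 3 and beta 4 genes marked the patch. Chrnb4 was at 117 and 208 CPM against 1.32 and 2.49 CPM in all other spots, and Chrnb3 was at 75.3 and 95.7 CPM against 1.56 and 1.84 CPM, both under the gene minimum in the Trained section. Chrna3 was the only one of 3 compared subunits called higher, a count too small to set against the 5.56% of all genes. Chrna4, the common cortical and thalamic subunit, had ratios of 1.20 and -0.25, and Chrnb2 of 0.84 and 0.60. Chrna5, which shares a gene cluster with Chrna3 and Chrnb4, gave 0 UMIs in Trained and 1 in Untrained, and Chrna7 gave none in either. At this depth a low level of either gene was not detectable.

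Of the 6 tachykinin and tachykinin receptor genes, 3 could be compared, and of these Tac1 and Tacr1 were higher in addition to the score gene Tac2. Tac1, the substance P precursor, was at 234 CPM in Trained and 325 CPM in Untrained against 92.8 and 63.2 CPM, and the substance P receptor gene Tacr1 was at 62.8 and 40.2 CPM against 3.78 and 3.49 CPM. The other 3, Tac4 and the receptor genes Tacr2 and Tacr3, gave no UMIs in the habenula spots of either section. Of the opioid peptides, Penk was at 25.1 and 1.39 CPM against 252 and 74.4 CPM, and Pdyn, the dynorphin precursor, gave 1 and 0 UMIs. None of 5 opioid genes compared was higher and 3 were lower in both sections, beside 5.56% higher and 5.18% lower of all genes. Of the muscarinic receptors 1 of 3 compared was lower and none higher, and of the serotonin receptors 2 of 6 were lower and none higher, counts too small to set against these shares.

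Of 4 GABA-B signalling genes compared, 3 were higher in both sections, beside 5.56% of all genes. Gabbr1 and Gabbr2, the receptor subunits, had log2 ratios of 1.495 and 1.91 and of 1.90 and 1.43. Kctd8, an auxiliary subunit of GABA-B receptors, was at 260 and 111 CPM against 13.2 and 6.83 CPM. Kctd12b fell under the minimum with 9 and 15 UMIs, and Kctd12 was below the other spots at -0.92 and -0.40, short of the 2-fold mark. The list stood at medians of 1.70 and 1.67. Voltage-gated calcium channels were split: Cacna1e, the R-type channel, was at 234 and 226 CPM against 49.2 and 58.1 CPM and Cacna1d, an L-type channel, was at 1.89 and 1.23, while 3 of 8 members were lower in both sections, beside 5.18% of all genes.

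The vesicular glutamate transporter genes differed among themselves, and the GABA genes were below the level elsewhere. Slc17a6, the vesicular glutamate transporter of the diencephalon, was at 255 and 175 CPM against 95.3 and 87.8 CPM, log2 ratios of 1.43 and 0.999, the latter just under the 2-fold mark. Slc17a7, the cortical transporter, was at 410 and 608 CPM, ratios of 0.16 and 0.45. Slc17a8, the remaining vesicular glutamate transporter, gave 0 and 6 UMIs. Gad1 was at 16.7 and 12.5 CPM against 333 and 162 CPM, ratios of -4.14 and -3.62, and Gad2 at ratios of -2.93 and -2.76. All 6 genes of an inhibitory neuron list were at least 2-fold lower in both sections, beside 5.18% of all genes.

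Transcription factors of the dorsal diencephalon were mostly high. Of 17 compared, 11 were called higher and 2 lower in both sections, beside 5.56% and 5.18% of all genes, with medians of 2.59 and 2.42. Irx2, an Iroquois homeobox gene, was at 138 and 180 CPM against 2.57 and 3.27 CPM, and Irx1 gave 24 and 75 UMIs but fell under the gene minimum. Nhlh2 was at 105 and 95.7 CPM against 2.88 and 3.22 CPM. Nr4a2, an orphan nuclear receptor, was at 381 and 223 CPM against 15.7 and 15.6 CPM. The zinc finger genes Zic1 and Zic4 overlap on opposite strands, so reads between them are uncertain if strand was not used in counting. Zic1, a factor of dorsal neural tissue, was at 728 and 673 CPM against 59.2 and 53.3 CPM, and Zic4 and Zic5 were called as well. Tcf7l2, a Wnt effector of thalamus and habenula, had ratios of 1.97 and 1.63. Neurod2 and Neurod6, factors of forebrain excitatory neurons, were lower at -1.49 and -1.19 and at -2.56 and -2.86. In the Wnt list, 4 of 10 compared genes were called higher and 1 lower, beside the same shares of all genes, and among the higher ones were the Wnt receptor gene Fzd1 at 2.88 and 2.96 and the ligand enhancer Rspo3 at 2.71 and 2.33.

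Of 11 granin and prohormone genes, 2 were called higher and 1 lower, beside 5.56% and 5.18% of all genes. The higher ones were Pcsk1, a prohormone convertase, at 2.33 and 1.90, and Pam, which amidates peptides such as substance P, at 2.01 and 1.43. Cpe, a carboxypeptidase, was at 0.75 and 0.73, and Vgf was lower at -3.52 and -1.55 from 1 and 22 UMIs. The genes lowest in the patch were Gad1, Oxt, Penk, Lamp5, Pvalb, Hpca, Gad2, Ptk2b, Vsnl1 and Camk2a, which mark inhibitory neurons, hypothalamic hormone neurons or forebrain pyramidal neurons. Camk2a, the forebrain kinase, was at 41.9 and 51.3 CPM against 257 and 312 CPM. Vsnl1, a neuronal calcium sensor, was at 138 and 121 CPM against 669 and 575 CPM.

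Nearer comparison tissue left the leading genes in place. Surrounding spots, 105 in Trained and 114 in Untrained, lay 2 to 4 grid steps from the patch, and 593 of 11970 genes were at least 2-fold higher in habenula spots than there in both sections (4.95%). Relay thalamus spots, the 100 highest in Prkcd, Tnnt1 and Rora in each section, gave 1210 genes (10.1%). Of the 666 genes above all other spots, 432 were also above the surrounding spots, and 361 passed all 3 comparisons. The genes that ranked highest against the surrounding spots beyond the 25 leading ones, all of them also at least 2-fold above all other spots in both sections, included Slc5a7, Pld5, Kcnip1 (a subunit of A-type potassium channels), Myo16, Cpne9, Prkcq (protein kinase C theta), Cadps2 (a dense-core vesicle priming factor) and Vav3. Kcnip1 was at 331 and 405 CPM against 28.4 and 38.8 CPM in the surrounding spots, and Prkcq was at 280 and 196 CPM against 15.0 and 24.6 CPM. Pld5 was at 83.7 and 107 CPM, with no UMI in the surrounding Trained spots and 6.63 CPM in the Untrained ones.

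Some gene groups stood apart less from nearer tissue than from the whole section. Of the 6 inhibitory neuron genes, all lower than in all other spots, 2 were lower than in the surrounding spots (4.52% of all genes) and 3 were lower than in relay thalamus (5.18%). Of the 4 GABA-B genes, 3 were higher than in the surrounding spots (4.95% of all genes) and 2 higher than in relay thalamus (10.1%), with medians over relay thalamus of 0.68 and 0.74. Of the 10 Wnt genes, 3 were higher than in the surrounding spots, while against relay thalamus 2 were higher and 1 lower, close to the 10.1% and 5.18% of all genes, with summed levels of 1381 and 979 CPM in habenula spots and 1209 and 999 CPM in relay thalamus.

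Levels went down away from the patch in steps that differed by gene. Chrna3 went from 364 CPM in Trained and 290 CPM in Untrained to 83.0 and 83.3 CPM in spots 1 grid step out, and to 43.4 and 29.9 CPM at 2 steps. Gpr151 declined less steeply, from 393 and 269 CPM to 313 and 224 CPM at 1 step and 136 and 95.3 CPM at 2 steps. Calb2, the calcium-binding protein calretinin of medial thalamic and habenular cells, was at 511 CPM in the Trained habenula spots and 792 CPM 1 step out, and at 771 and 683 CPM in Untrained. Prkcd was at 46.0 and 19.4 CPM in the habenula spots, with 8 of its 11 Trained UMIs in 1 spot outside the patch, and reached 329 and 97.8 CPM at 7 steps. A spot just outside the patch can hold part of the nucleus, and spread of RNA between spots was not tested.

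**Figure D3:**
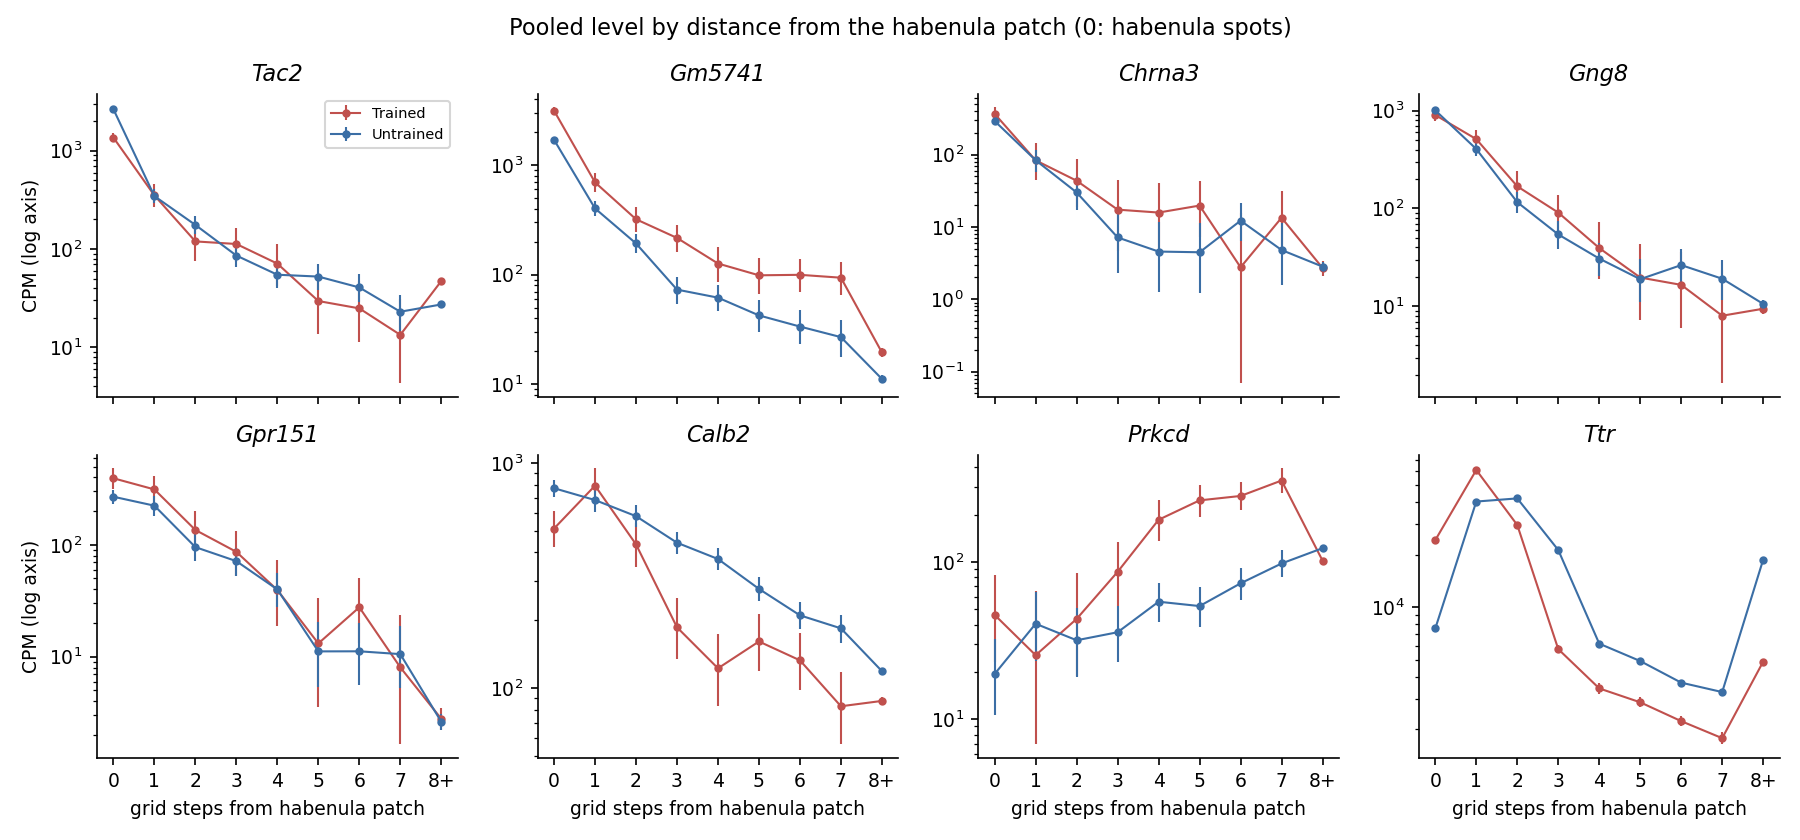
Pooled level in CPM on a log axis by grid steps from the habenula patch for 8 genes, for Trained (red) and Untrained (blue), with 95% counting intervals. Step 0 is the 30 habenula spots and the last point pools all spots 8 or more steps away. The habenula genes decline with distance, Prkcd is higher farther out, and Ttr is highest 1 to 2 steps from the patch.

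Choroid plexus and ependyma lay against the patch, and their genes were found in the habenula spots to different degrees. Whether this came from spread of RNA or from cells within the spots was not tested. Ttr, the transthyretin gene of choroid plexus, was at 24270 CPM in the Trained habenula spots and 61206 CPM 1 step out, and at 7571 and 40364 CPM in Untrained. Single habenula spots ranged from 21.8 to 1256 Ttr UMIs per 10000 in Trained and from 22.6 to 259 in Untrained. Summed over 10 choroid plexus genes, habenula spots were at 25592 CPM in Trained against 5685 CPM in all other spots, and at 8103 CPM in Untrained against 19641 CPM. Of the 9 that reached the gene minimum 1 was called higher in both sections, the homeobox gene Otx2, at log2 ratios of 3.32 and 1.93, beside 5.56% of all genes. None of the 10 genes was at 0 in the pooled habenula spots of either section. The 6 ependyma genes were all at least 2-fold higher than in all other spots in both sections and were summed at 599 and 762 CPM against 78.4 and 168 CPM. Among them Rarres2 was at 247 and 240 CPM against 32.2 and 50.9 CPM, and Foxj1, the master factor of motile cilia, at 46.0 and 40.2 CPM against 10.2 and 16.1 CPM. Without the 10 habenula spots of each section richest in these lists, 645 genes were called over all other spots, 489 of them among the 666.

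Among the marker lists of other cell types, few genes were called higher in habenula spots, and their counts stand beside 5.56% higher and 5.18% lower of all genes. None of 8 oligodendrocyte genes was called higher, with Mbp at 1804 and 1920 CPM against 2930.3 and 3217 CPM. Of 8 astrocyte genes 1 was called higher, Aqp4, the water channel of astrocyte endfeet, at log2 ratios of 1.86 and 1.84, and 2 were lower, the glutamate transporters Slc1a2 and Slc1a3. No microglia or endothelium gene was called in either direction. Of 7 medial thalamus genes 2 were higher, Calb2 and Tcf7l2, which the habenula also expresses, with the list summed at 929 and 1158 CPM against 367 and 380 CPM, and of 3 arcuate hypothalamus genes compared 2 were lower. Of 8 relay thalamus genes none was higher, and of 8 dentate granule cell genes 4 were lower and none higher. Mitochondrially encoded transcripts made up 5.38% of UMIs in the Trained habenula spots and 8.97% in the Untrained ones, against 12.3% and 16.3% in all other spots and 12.1% and 17.1% in the surrounding spots. All 13 of these genes had ratios below 0 in both sections, and 6 passed the 2-fold mark in both.

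The habenula patch was not uniform from top to bottom. It was split by position alone into a dorsal part (16 Trained and 20 Untrained spots) and a ventral part (12 and 10 spots), and of 3563 genes 12 were at least 2-fold higher dorsally (0.337%) and 11 ventrally (0.309%) in both sections. Tac1 was at 363 CPM dorsally and 74.4 CPM ventrally in Trained, and at 485 and 45.7 CPM in Untrained, log2 ratios of 2.20 and 3.35. Cck, the cholecystokinin precursor, was at 489 and 149 CPM in Trained and at 692 and 202 CPM in Untrained. Tac2, which chose the spots, had ratios of -0.17 and -0.03. Ttr and Enpp2 were also higher dorsally, at 1.18 and 0.62 and at 1.23 and 1.06, on the side of the choroid plexus.

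Ventrally, Etv1, an ETS-family factor, was at 553 CPM against 252 CPM dorsally in Trained and at 350 against 124 CPM in Untrained, log2 ratios of -1.13 and -1.49. Nfam1 had ratios of -1.76 and -1.47, Neurod1, a neuronal basic helix-loop-helix factor, of -1.48 and -1.08, and Ctnnbip1, an inhibitor of beta-catenin, of -1.27 and -1.45. Chrna3 leaned the same way at -0.62 and -0.98, and Htr5b at -0.75 and -1.59. Slc18a3 had ratios of -0.88 and -0.96 on few UMIs, 3 and 4 in the Trained parts and 26 and 29 in the Untrained parts. Slc5a7 did not have a common direction, at 0.33 and -1.67, nor did Calb2, at -0.35 and 1.87. The genes of this split and of the next one were ranked on these same spots, so their ratios describe the patch and support nothing further.

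From the midline outwards, the inner 19 spots of each section were set against the outer 9 in Trained and 11 in Untrained, and 28 genes were at least 2-fold higher in the inner part (0.786%) and 7 in the outer part (0.196%) in both. All 5 ependyma genes that reached the minimum (Ccdc153, Tmem212, Rarres2, Dynlrb2 and Mia) were at least 2-fold higher in the inner part in both sections. Rarres2 was at 392 CPM against 11.9 CPM in Trained and 348 against 24.9 CPM in Untrained, and Dynlrb2, a dynein light chain of cilia, gave 17 UMIs in the inner Trained spots and none in the outer ones. Slc5a7 was inner as well, at 268 against 107 CPM and 97.9 against 41.5 CPM, as was Fgf1, a fibroblast growth factor, at 564 against 119 CPM and 306 against 162 CPM. Slc17a7 was inner at log2 ratios of 0.89 and 0.63.

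Outwards, Gng8 was at 1493 CPM against 592 CPM in Trained and 1479 against 766 CPM in Untrained, inner over outer log2 ratios of -1.33 and -0.95. Gpr151 was at 561 against 317 CPM and 366 against 221 CPM. Cartpt, the gene of the lateral habenula list that was high in the patch, was at 179 against 27.5 CPM and 233 against 47.9 CPM, ratios of -2.58 and -2.26. The myelin gene Mbp was outer too, at -0.57 and -0.77. Tac2, at -0.09 and 0.41, and Gm5741, at 0.12 and 0.34, showed less difference across the patch. In the plots of single spots the values of neighbouring positions overlap widely, and Slc5a7 has no clear order from the middle outwards in Untrained.

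**Figure D4:**
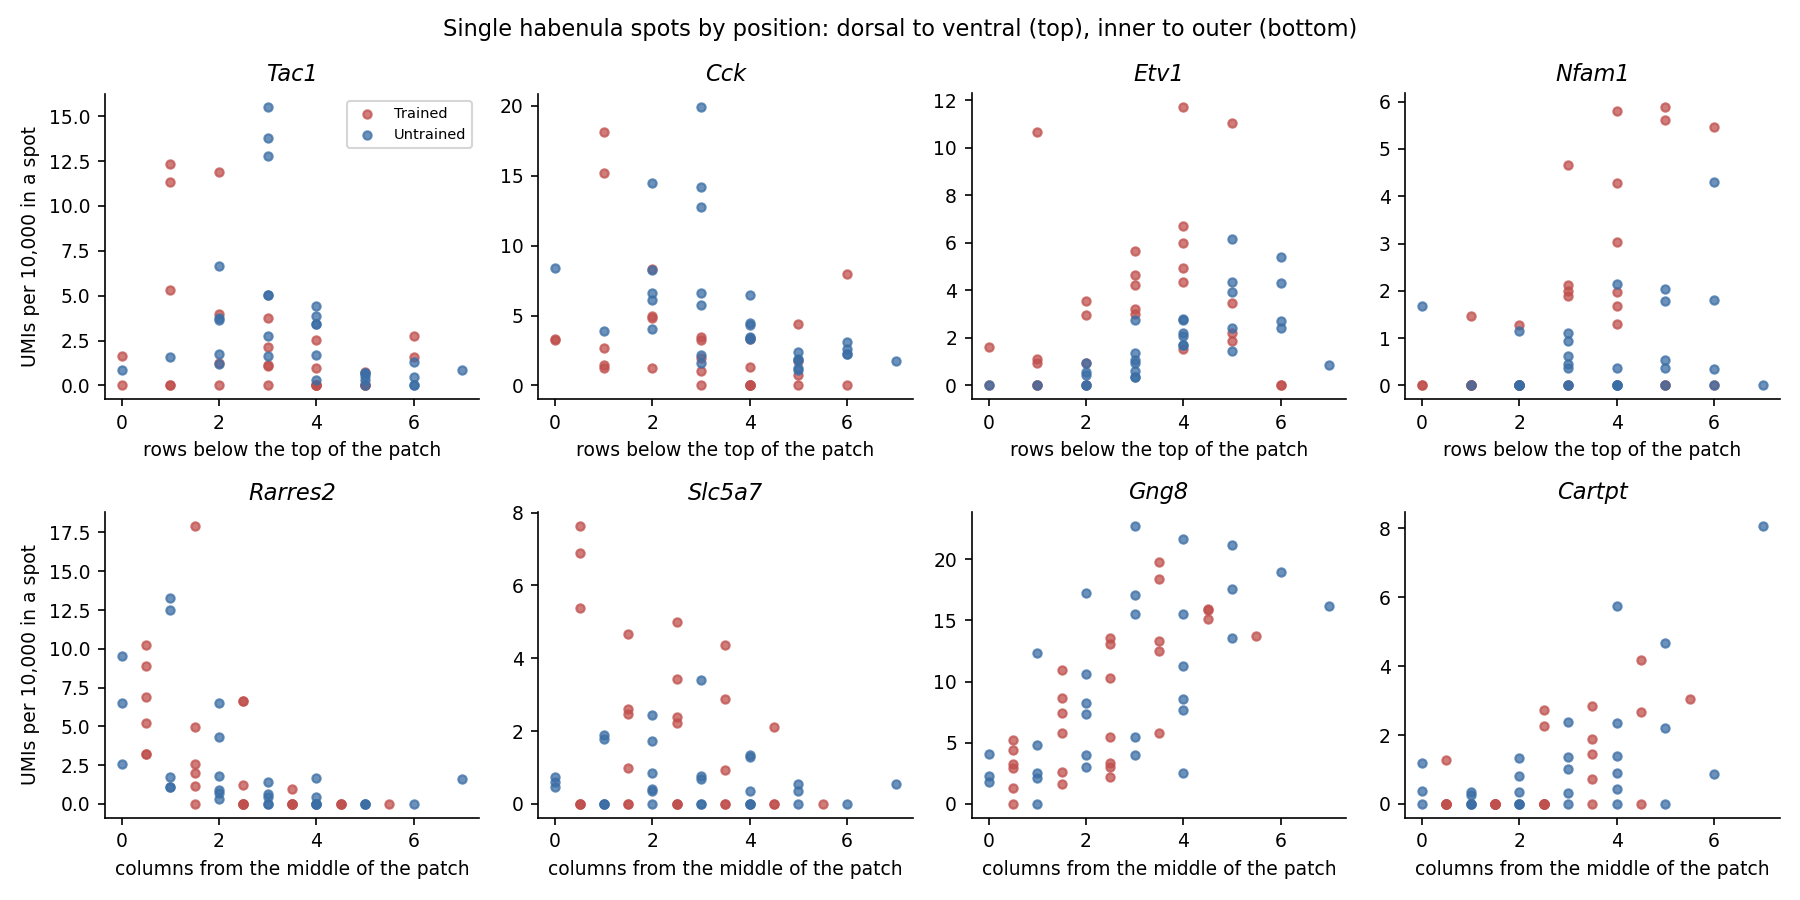
UMIs per 10000 UMIs in single habenula patch spots, 28 in Trained (red) and 30 in Untrained (blue), against rows below the top of the patch (upper panels) and columns from the middle of the patch (lower panels). Tac1 and Cck have their highest values within 3 rows of the top and Etv1 and Nfam1 4 or more rows down. Rarres2 is highest within 2 columns of the middle, the highest Untrained Slc5a7 value lies 3 columns out, and Gng8 and Cartpt have their highest values 3 or more columns out.

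Between the sections, a few of the leading and medial habenula genes were at least 2-fold apart and most were not. Of 3567 genes with at least 50 UMIs over both sets of habenula spots, 249 were at least 2-fold apart (6.98%), with 137 higher in Trained (3.84%) and 112 lower (3.14%). The ratio Trained over Untrained had a median of 0.02 and an SD of 0.56 over genes in habenula spots, beside a median of 0.07 and an SD of 0.38 for all other spots, which are pooled over many more UMIs. Of 3550 genes measured in both, 86 had a ratio in the habenula at least 2-fold apart from that elsewhere (2.42%), 37 towards Trained and 49 towards Untrained. Of the 16 medial habenula genes that could be compared, 1 was at least 2-fold higher in Trained, Slc5a7, at a log2 ratio of 1.38 (0.79 to 1.95) against 2.57 elsewhere, and 2 were lower, Slc18a3 at -1.29 (-2.76 to -0.24) against 1.68 and Kcng4 at -1.43 (-2.54 to -0.58) against -0.54. Among the 25 leading genes, Kctd8 at 1.23 (0.72 to 1.72) against 0.95 elsewhere and Nfam1 at 1.40 (0.76 to 2.03) against -0.21 were at least 2-fold higher in Trained, and Gm5741 was at 0.88 (0.75 to 1.02) against 0.73. Gng8 had a ratio of -0.16 (-0.38 to 0.06), Chrna3 of 0.33 (-0.05 to 0.70), Zic1 of 0.12 (-0.14 to 0.37) and Necab2 of -0.47 (-0.64 to -0.31). Tac2 was lower in the Trained habenula at -0.96 (-1.13 to -0.79) although it was higher in the other Trained spots at 0.59, and this gene chose the spots, so the values are descriptive. With the score taken over Nwd2 and Pou4f1 alone, the Tac2 ratio was -1.09. Tac1 was at -0.46 (-0.92 to -0.04), against 0.55 elsewhere.

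Of the 249 genes that were apart in the habenula, 34 were also at least 2-fold apart the same way in all other spots, and several of the largest ratios were among them. Ulk4, a serine-threonine kinase-like gene, was at 276 CPM in Trained and 23.6 CPM in Untrained, a log2 ratio of 3.52 against 2.86 in all other spots, and Nme7 was at 306 and 27.7 CPM, a ratio of 3.44 against 3.37. Each overlaps a gene on the opposite strand, Ctnnb1 and Atp1b1, and so does Nap1l5 with Herc3, at 2.00 against 1.31. Their values are uncertain for that reason if strand was not used in counting, which cannot be seen from the counts. In the other direction, Bc1, a small noncoding RNA of dendrites, was at 25.1 and 180 CPM, a ratio of -2.73 against -3.44, and the noncoding genes AA465934, Snhg9 and Gm10076 were at -3.20, -2.54 and -2.11 against -3.94, -3.20 and -1.79. Snhg9 overlaps Rps2 on the opposite strand and its value is uncertain likewise. The protein-coding genes among the 6 lowest were Rps10, a ribosomal protein, at -1.44 against -0.54 and overlapping Gm15420 on the opposite strand, and Atp5k, an ATP synthase subunit, at -1.32 against -0.90.

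Ttr and its neighbours went the other way in the habenula than in the rest of the sections. Ttr had a ratio of 1.68 in habenula spots and -1.80 in all other spots, Enpp2 of 1.36 and -1.63, and Ecrg4, a peptide gene of choroid plexus and ependyma, of 0.39 and -1.68. In the surrounding spots the Ttr ratio was -0.83. Without the 10 habenula spots of each section richest in barrier genes, Ttr stood at 0.79 and Enpp2 at 0.63, and with 50 spots per section they turned to -0.45 and -0.95. The Ecrg4 ratio in habenula spots also turned negative with 50 spots per section and on the left side of the array. Fars2, a mitochondrial tRNA synthetase gene that overlaps Nrn1 on the opposite strand, was at 163 and 19.4 CPM, a ratio of 3.04 against 0.66. Mxra7 was at 20.9 and 80.5 CPM from 5 and 58 UMIs, a ratio of -1.82 against 0.65, and mt-Co3 at -0.99 against -0.36. Of 12 mitochondrially encoded genes compared between the sections, 5 were at least 2-fold lower in the Trained habenula spots and none higher, beside 3.14% of all genes lower, with a median ratio of -0.95 against -0.63 in all other spots.

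**Figure D5:**
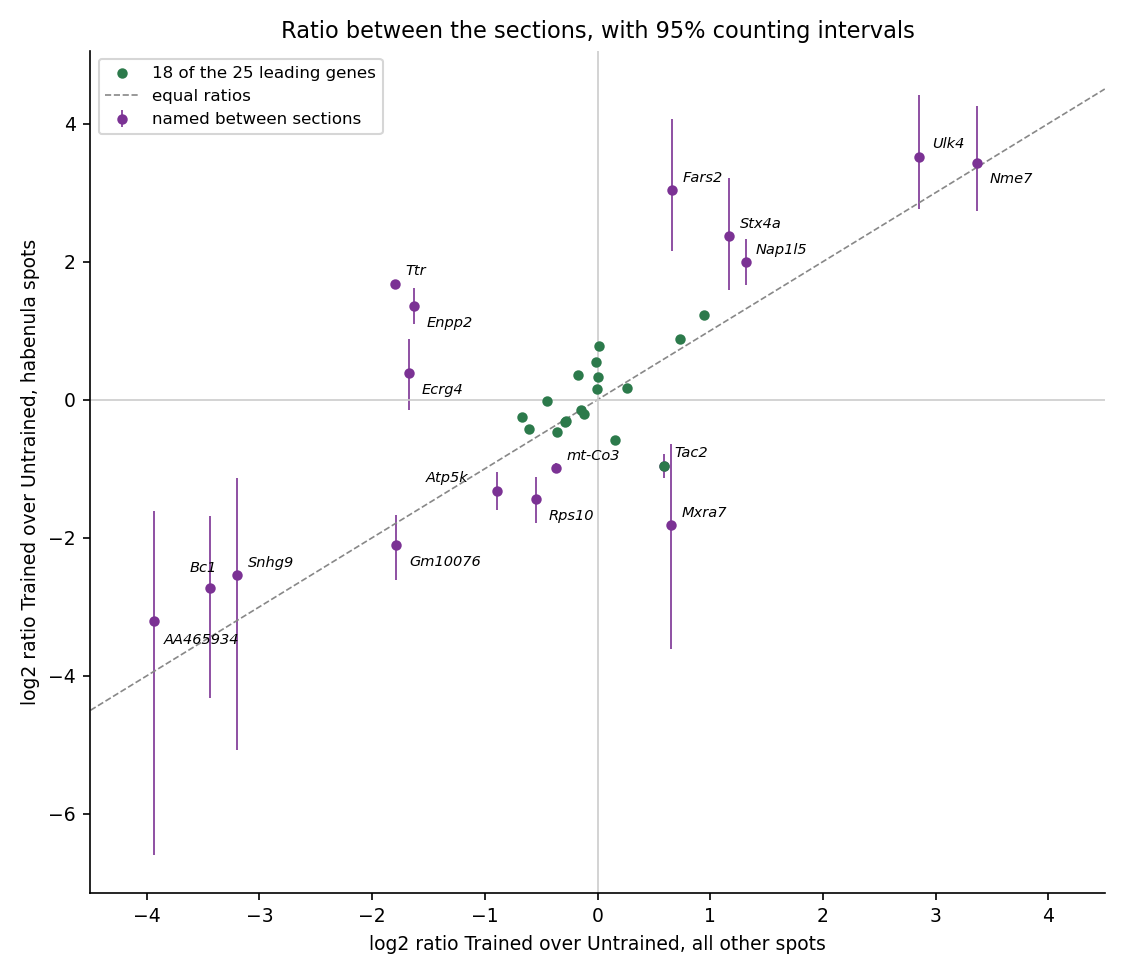
Log2 ratio Trained over Untrained in habenula spots against the same ratio in all other spots, for genes named between the sections (purple, labelled, with 95% counting intervals) and leading habenula genes (green). Ttr, Enpp2, Ecrg4 and Fars2 lie furthest above the line of equal ratios and Tac2 and Mxra7 furthest below it. Other named genes lie nearer to it on either side, with Rps10 and mt-Co3 below it.

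Of 18 immediate early genes, which neurons switch on after activity, 1 was higher and 9 were lower in habenula spots than in all other spots in both sections, beside 5.56% and 5.18% of all genes, with medians of -1.18 and -1.79. Against relay thalamus 3 were higher and 2 lower, beside 10.1% and 5.18% of all genes, and the summed levels were 469 and 391 CPM in habenula spots, 536 and 489 CPM in relay thalamus and 921 and 797 CPM in all other spots. Arc, the activity-regulated gene whose regulatory sequence drives the Cre of these mice, gave 3 UMIs in Trained and 12 in Untrained, or 12.6 and 16.6 CPM against 75.6 and 68.3 CPM elsewhere. Fos gave 1 and 8 UMIs and Egr1 gave 4 and 19. The single higher gene of the 18, a share close to that of all genes, was Btg2, an antiproliferative early gene, at 1.17 (-0.25 to 2.13) and 1.27 (0.61 to 1.82). The list leaves out Nr4a2, a leading gene of the same family as Nr4a3. Reported above with the transcription factors, Nr4a2 was at 381 CPM in the Trained and 223 CPM in the Untrained habenula spots. Only 2 of the 18, Jund and Nr4a3, had enough UMIs for the comparison between sections, at 0.48 and -0.67. For Arc the interval of the ratio between sections ran from -2.87 to 1.48, so a difference of several-fold either way was not detectable at this depth.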

How the data were processed

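Poly-A RNA of 1 section per group was captured on 10x Visium arrays, and the authors trimmed reads with TrimGalore and counted them with Space Ranger 2.0.0 against mm10. The deposited matrices hold raw UMI counts per gene and spot, and the deposited position tables give each spot's array row and column. Every spot of the matrices lies under tissue, and sums of counts per spot give the depth. The members, gene lists and comparisons were chosen with earlier results of these data known.

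From the counts, spots with at least 2000 UMIs were scored, and counts were pooled per set and scaled to CPM. Levels have exact Poisson intervals and ratios have exact conditional binomial intervals (95%), computed in Python 3.11.15 with numpy 2.4.6, scipy 1.17.1 and pandas 2.3.3 and checked on simulated counts. Such intervals treat UMIs as independent and leave out variation between animals. Genes were compared at 100 UMIs or more over the spots of each section, and between sections at 50 UMIs or more over the habenula spots. Grid steps count neighbouring spots. The 28 lists hold 239 genes, all of them in the matrix. Named genes were the 3 of the score, the listed genes, the 25 highest and 10 lowest over all other spots, 10 more over the surrounding spots, the 6 highest and 6 lowest between sections and 4 on each side for the difference from all other spots, all ranked by interval bounds. Genes of the position splits were ranked afterwards, 12 per side. The alternatives were 20 or 50 spots per section, a score without Tac2, patch spots only, totals without mitochondrially encoded genes, equal weights, thinning to 2000 UMIs, other gene minimums, a pseudocount of 5, the left or right side of the array, and the removal of spots rich in barrier genes, which was chosen after seeing the data. RefSeq protein sequences were not used here. Gene positions and overlaps come from a GENCODE annotation of the same build, and promoters from RefSeq. A few of the named genes are not reported here.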

Additional observations from a re-analysis of the deposited data

Results flagged for a closer look

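A few genes stood above all other spots in one section's habenula and below them in the other's, and these differences were not tested. Ttr had a log2 ratio of 2.21 in Trained and -1.27 in Untrained, and the choroid plexus genes around it did likewise: Enpp2 at 1.46 and -1.53, Kl at 2.02 and -3.09, Clic6 at 1.497 and -1.82, Folr1 at 2.03 and -1.37, Kcne2 at 2.45 and -1.66, and Kcnj13 at 2.11 and -1.14. Of the other 2 genes of the list that were compared, Aqp1 was at 1.53 and -1.44 on 2 and 5 UMIs in the habenula spots, with a Trained interval that spans 0, and Otx2 was higher in both sections at 3.32 and 1.93. The pooled level of the choroid plexus list outside the habenula differed as well, at 5685 CPM in Trained and 19641 CPM in Untrained, and its part in these ratios was not tested. Atp5k crossed 0 by little, at -0.26 and 0.16.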

How the results depend on the processing

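No paired analysis was possible because each group is 1 section and the samples share only a replicate number. The counts of called genes over all other spots, over the surrounding spots, over relay thalamus and between sections, and for the difference from all other spots, were 666, 593, 1210, 249 and 86. A gene minimum 10 times lower gave 2000, 1759, 3026, 2417 and 1993. Thinning to 2000 UMIs per spot gave 772 over relay thalamus, 35 between sections and 9 for the difference. It called 511 genes over all other spots, and only 184 of them were among the 666, or 27.6% of that list. Doubling the minimum gave 91 between sections and 15 for the difference. A pseudocount of 5 gave 2561 over all other spots and 991 over the surrounding spots, since it weighs more in the smaller set. The right side of the array gave 141 and 43 between sections and for the difference. No other setting moved one of these counts by over 1.5 times. Ratios between sections turned for Ttr (-0.45), Enpp2 (-0.95) and Ecrg4 (-0.56) with 50 spots per section, for Ecrg4 (-1.29) on the left side and for Mxra7 (0.74) after thinning, and the cause was not tested. Of the 45 ratios over all other spots that were recomputed (the leading genes, the lowest and those ranked against the surrounding spots), none turned, but 27 moved by more than their counting interval with 50 spots per section and 22 after thinning. These genes had been picked for large ratios on mostly the same spots, so a turn was unlikely from the start and its absence supports nothing. Depth limits every gene with few UMIs in 30 spots, and 1 section per group leaves variation between animals unknown.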
